A study of Mus musculus with 12 samples.

Results

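The insulin-like growth factor axis was followed in whole mouse prostate through 10 genes given by name: the ligand genes Igf1 and Igf2, the receptor genes Igf1r and Igf2r, and the binding protein genes Igfbp2, Igfbp3, Igfbp4, Igfbp5, Igfbp6 and Igfbp7. All 10 were among the 23284 genes of the deposited table, and all 10 passed the filter on low values (4 or more in 6 libraries) that left 15096 tested genes. Poly-A selected RNA was sequenced from 6 libraries of wild-type (Nkx3.1 +/+) mice and 6 libraries of homozygous mutant (Nkx3.1 -/-) mice, called null below. All animals were 4 months old, on a hybrid background of 129/SvImJ and C57Bl/6J, and no group was treated. The labels name neither the prostate lobes taken nor the number of animals behind a library, so the p-values refer to library-to-library spread only, and part of it may be technical.

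IGF1 and IGF2 are small secreted hormones related to insulin. Both bind IGF1R, a receptor tyrosine kinase that signals through IRS adaptors to PI3K and AKT, whereas IGF2R carries IGF2 to the lysosome and is not a signalling kinase. In the fluid around cells most of the ligand is held by IGFBPs, which release it when proteases cut them. In the prostate, stromal cells are known as a main source of the ligands and the epithelium carries the receptor. In bulk tissue, fewer cells of a type and less RNA per cell cannot be told apart.

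Levels are the deposited log2 values, so a difference of 1 is a change of 2-fold, and the depth of the libraries is unknown. A gene is called, and is said to have risen or fallen, where limma gave an adjusted p (Benjamini-Hochberg, all tested genes) under 0.05. Every adjusted p below is of this kind.

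The axis differed in parts between the genotypes. Over 12 libraries both receptor genes rose in null prostate, the ligand gene Igf1 fell, and of 6 binding protein genes 1 rose (Igfbp3), 4 fell (Igfbp2, Igfbp4, Igfbp6 and Igfbp7) and Igfbp5 was not called, nor was Igf2. The 8 called of 10 members stand beside 53.1% of all tested genes called, with 28% called higher and 25.1% called lower. The median size of the difference was 0.51 on the log2 scale for the members and 0.25 for all tested genes. Median differences were -0.16 and 0.012.

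Libraries within a genotype were not evenly spaced. Wild type divided into libraries 1 to 3 and 4 to 6. The null group divided into libraries 1, 2, 5 and libraries 3, 4, 6. Sets were chosen so that 1 library of each lay nearest to an equal mix of its partners, namely wild-type libraries 3 and 5 and null libraries 5 and 6, with median deviations of 0.029 to 0.036. For the members, the values of null libraries 5 and 6 differed from those mixes by 0.032 (median of 20 comparisons) and by at most 0.16. Of these 20 values, 15 lay between those of the 2 partners. The values that lay outside were those of Igf1, Igf2, Igfbp4, Igfbp6 and Igfbp7 in null library 6. The 2 wild-type sets did not overlap in 9 of 10 members, the exception being Igf2, beside 43.9% of tested genes. The 2 null sets did not overlap in 4 members, beside 39% of tested genes. Calls are over 12 libraries unless stated, and those of members and lists are also given over the 4 set means, 2 against 2, where 14.5% of all tested genes passed (7.58% higher and 6.96% lower). Of 10 members 2 passed there, Igf1r higher and Igf1 lower. Prostate marker genes were high in every library, with the lowest value 15.63 for Pbsn, 18.995 for Tgm4 and 12.23 for Hoxb13. Null means were below wild-type means, at 15.83 against 17.99 for Pbsn, 19.17 against 19.57 for Tgm4 and 12.37 against 12.997 for Hoxb13. Of 6 seminal vesicle genes, 6 rose (4 over set means), and their summed level was 6.30 to 11.60 in wild-type and 16.71 to 20.26 in null libraries. The part of such RNA in the members' values was not tested.

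The stretches before the starts of 4 called genes are shown, 2 that rose (Igf1r and Igf2r) and 2 that fell (Igfbp7 and Igfbp6). They are examples of GC-rich promoters and, for Igfbp6, of a promoter near the median GC content of all windows. The windows are the 250 bases before the start in RefSeq on build GRCm38.p6, a later build than the mm9 of the study, read along each gene. The Igf1r window is chr7:67952007-67952256 on the plus strand, the Igf2r window chr17:12769707-12769956 on the minus strand, the Igfbp7 window chr5:77408046-77408295 on the minus strand and the Igfbp6 window chr15:102143936-102144185 on the plus strand. Capitals mark the GC box GGGCGG and the CCAAT box CCAAT on either strand, overlaps included.
Igf1r: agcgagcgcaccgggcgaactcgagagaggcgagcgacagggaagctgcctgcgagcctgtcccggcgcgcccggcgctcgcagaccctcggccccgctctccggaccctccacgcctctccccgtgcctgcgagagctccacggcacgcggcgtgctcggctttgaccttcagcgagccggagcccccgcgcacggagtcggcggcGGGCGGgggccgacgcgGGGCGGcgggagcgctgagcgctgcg
Igf2r: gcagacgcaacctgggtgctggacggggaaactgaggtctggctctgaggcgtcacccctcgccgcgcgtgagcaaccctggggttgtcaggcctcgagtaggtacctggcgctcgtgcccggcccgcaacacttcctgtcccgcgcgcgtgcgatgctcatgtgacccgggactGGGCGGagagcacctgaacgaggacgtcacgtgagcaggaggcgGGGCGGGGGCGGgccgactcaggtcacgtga
Igfbp7: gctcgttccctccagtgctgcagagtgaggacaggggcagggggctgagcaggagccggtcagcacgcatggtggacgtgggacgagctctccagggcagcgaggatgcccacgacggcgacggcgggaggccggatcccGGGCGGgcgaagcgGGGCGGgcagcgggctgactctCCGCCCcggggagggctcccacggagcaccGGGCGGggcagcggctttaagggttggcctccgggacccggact
Igfbp6: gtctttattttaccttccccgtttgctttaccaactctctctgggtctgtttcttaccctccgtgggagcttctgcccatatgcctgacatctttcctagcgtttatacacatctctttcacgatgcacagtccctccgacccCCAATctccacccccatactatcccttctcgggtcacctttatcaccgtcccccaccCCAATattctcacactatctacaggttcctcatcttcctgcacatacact

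GC-rich windows stood before both receptor genes, which rose, and before Igfbp7, which fell, and GC content was also high before Igfbp3 (73.2%), which rose, and Igfbp4 (69.2%), which fell. G and C made up 77.6% of the Igf1r window, 69.2% of the Igf2r window and 74% of the Igfbp7 window, but 49.6% of the Igfbp6 window, against a median of 52.4% over 32851 windows of the same length. The Igf1r window held 42 CG pairs, above the 95th percentile of 31 over all windows, as was the Igfbp3 window with 32, and the Igfbp6 window held 7. GC boxes numbered 2 before Igf1r, 3 before Igf2r (of which 2 lie end to end), 4 before Igfbp7 and 0 before Igfbp3, Igfbp4 and Igfbp6, the last of which held 2 CCAAT boxes. Over the 14 windows of the 10 members, 6 held a GC box, and 32.7% of all windows did. The half-site AGAACA of the androgen receptor stood in 2 of the 14 member windows (16.1% of all windows), and TGTTTAC, a FOXO site, stood in 0 (3.17% of all windows).

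Igf1r, which encodes the receptor for both ligands, differed most. Wild-type libraries ranged from 10.52 to 10.99 with a median of 10.72, and null libraries from 11.98 to 12.29 with a median of 12.05. All 6 null libraries lay above all 6 wild-type libraries, and the gap between the groups was wider than the whole range of either. Igf1r rose by 1.36 ± 0.091 (SE) on the log2 scale, which is 2.56-fold, with adjusted p = 2.80e-08 over 12 libraries and 0.00757 over set means. Of all tested genes, 4.08% differed by at least as much. Igf1r was the only member called in each of 26 settings (the fit over 12 libraries and 25 alternatives that each change 1 choice), with differences from 1.16 to 1.55.

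Igf2r, which encodes the receptor that clears IGF2 and sorts lysosomal enzymes, was higher by less. It ranged from 11.33 to 11.71 with a median of 11.50 in wild-type libraries and from 11.73 to 12.26 with a median of 12.05 in null libraries. The genotypes did not overlap, though wild-type library 5 (11.71) lay close to null library 2 (11.73). Igf2r rose by 0.51 ± 0.11 (SE), which is 1.43-fold, with adjusted p = 0.00122. The set means gave adjusted p = 0.126, and the sets of each genotype stood apart, at means of 11.36 and 11.66 in wild-type and 11.80 and 12.24 in null libraries. Without null libraries 3, 4 and 6 the rise was 0.30 (adjusted p = 0.0181). Airn, the RNA that runs antisense through Igf2r and takes part in its imprinting, rose by 1.07, with a wild-type mean of 7.78 ± 0.16 (SD, n = 6) and a null mean of 8.85 ± 0.076 (SD, n = 6; adjusted p = 2.58e-08; 0.00669 over set means). Whether counting used the strand is not stated, so Airn reads cannot be told apart from reads of Igf2r introns.

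Igf1, the ligand gene induced by growth hormone in liver and made locally in many tissues, was lower. Wild-type libraries ranged from 8.62 to 8.98 with a median of 8.76, and null libraries from 7.59 to 8.66 with a median of 8.08. In 5 of 6 null libraries Igf1 was below every wild-type library, while null library 1, at 8.66, lay just above wild-type libraries 1 to 3. Igf1 fell by 0.68 ± 0.14 (SE), to 62.5% of the wild-type level, with adjusted p = 0.00126 and 0.0284 over set means. Null libraries 1 and 2 stood 1.07 apart and share a set, so their spread is lost in a set mean. In a fit of 2 wild-type set means against null libraries 1 to 4 the difference was -0.66 with adjusted p = 0.136, and limma without trend over set means did not call Igf1.

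Igf2, the ligand gene of fetal growth, was not called. Its wild-type libraries ranged from 5.71 to 6.71 with a median of 6.57 and its null libraries from 6.16 to 6.76 with a median of 6.32. The genotypes overlapped over most of their ranges, and the difference of -0.018 had a 95% interval from -0.37 to 0.33 (adjusted p = 0.935). A change as large as either bound is therefore not excluded by these libraries. H19, the imprinted RNA gene next to Igf2, stood at 3.94 in wild-type and 3.78 in null libraries and was not tested, close to 3.51, the 95th percentile of 1123 olfactory receptor genes that stand for undetected genes.

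**Figure D1:**
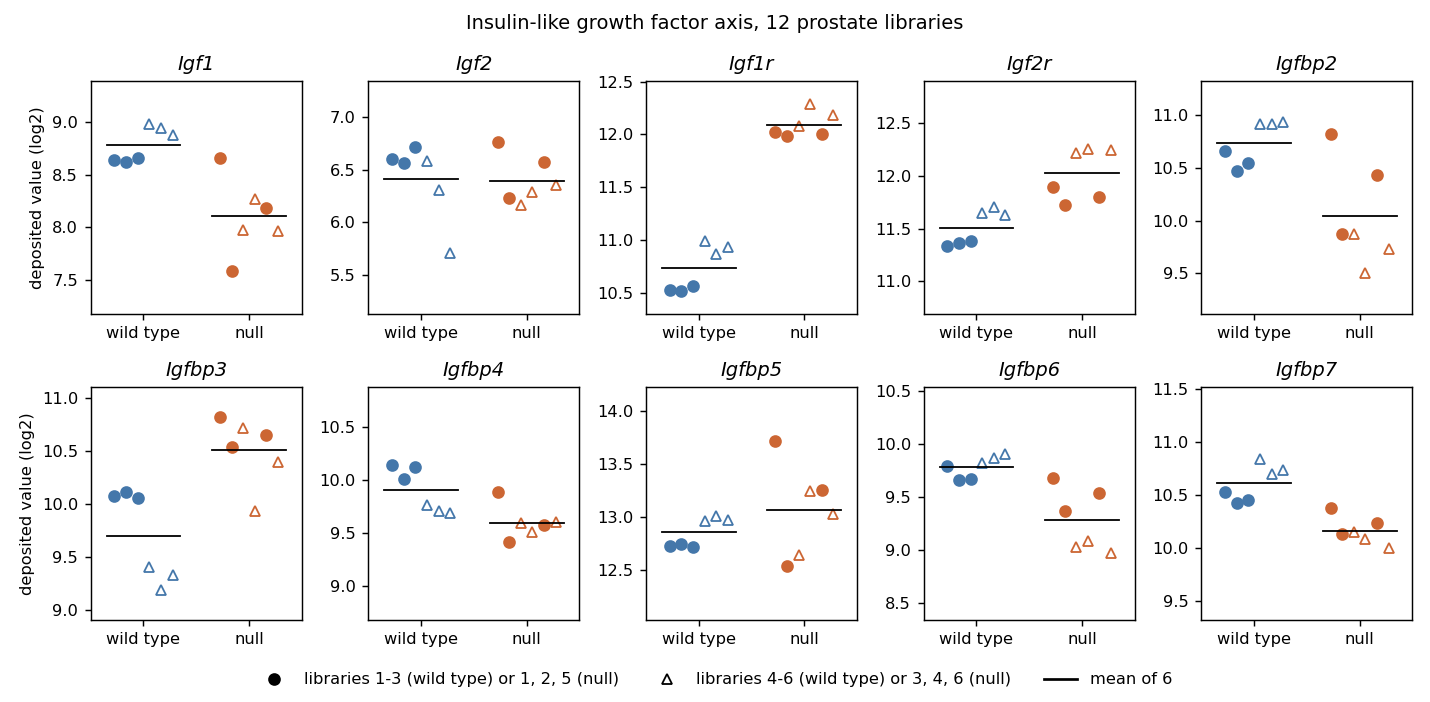
Deposited log2 values (vertical axis, a span of 2.2 in each panel) of the 10 members in 6 wild-type and 6 null libraries (horizontal axis), with 1 symbol per library, filled circles and open triangles for the 2 library sets of each genotype and a line at the mean of 6. Null libraries of Igf1r, at 11.98 or more, sit above all wild-type libraries. Null library 1 is the highest null library for every member except Igf1r and Igf2r.

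Igfbp3, the main carrier of IGFs in serum and a gene that restrains growth in many cells, was the binding protein gene that rose. It ranged from 9.19 to 10.12 with a median of 9.73 in wild-type and from 9.94 to 10.82 with a median of 10.60 in null libraries. Of 6 null libraries 5 lay above all wild-type libraries, and null library 4, at 9.94, lay under wild-type libraries 1 to 3. Igfbp3 rose by 0.82 ± 0.20 (SE), which is 1.76-fold (adjusted p = 0.00423). The set means gave adjusted p = 0.118, and the wild-type sets stood 0.78 apart, nearly as far as the genotypes. Without wild-type libraries 4 to 6 the rise measured 0.43 (adjusted p = 0.0574), and leaving out null libraries 1, 2 and 5 gave 0.66 (adjusted p = 0.0808).

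Igfbp2, a binding protein gene that responds to metabolic state, fell by 0.70 ± 0.20 (SE), to 61.7% of the wild-type level (adjusted p = 0.0102). Wild-type libraries ranged from 10.47 to 10.93 with a median of 10.79 and null libraries from 9.51 to 10.82 with a median of 9.88. Null library 1, at 10.82, lay within the wild-type range, and the other 5 lay below it. The call was lost over set means (adjusted p = 0.132). It was also lost without null libraries 3, 4 and 6, at -0.36 (adjusted p = 0.156), and with wild-type libraries 4 to 6 left out, at -0.52 (adjusted p = 0.141).

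Igfbp7, a secreted protein of the family that binds IGFs only weakly, was the binding protein gene whose genotypes did not overlap. Wild-type libraries ranged from 10.43 to 10.84 with a median of 10.61 and null libraries from 10.0003 to 10.38 with a median of 10.14. It fell by 0.45 ± 0.079 (SE), to 73.2% of the wild-type level, with adjusted p = 0.000238, and over set means adjusted p was 0.0751. With Igf1r and Igf2r it was 1 of 3 members without overlap, beside 32.6% of all tested genes (17.4% with null higher and 15.2% with null lower).

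Igfbp6, whose protein prefers IGF2 over IGF1, fell by 0.51 ± 0.11 (SE), to 70.4% of the wild-type level (adjusted p = 0.00184; 0.122 over set means). It ranged from 9.66 to 9.91 with a median of 9.81 in wild-type and from 8.98 to 9.68 with a median of 9.23 in null libraries. Null libraries 3, 4 and 6 were the lowest, and null library 1 lay within the wild-type range. Leaving out those 3 lowest libraries gave a fall of 0.26 (adjusted p = 0.0154). Igfbp4, an inhibitory binding protein that PAPP-A cuts, fell by 0.31 ± 0.096 (SE), to 80.7% of the wild-type level (adjusted p = 0.0140; 0.188 over set means). It ranged from 9.69 to 10.14 with a median of 9.89 in wild-type and from 9.41 to 9.89 with a median of 9.58 in null libraries. Null library 1 lay above wild-type libraries 4 to 6, and the call was lost without wild-type libraries 1 to 3, at -0.12 (adjusted p = 0.264), and without null libraries 3, 4 and 6, at -0.28 (adjusted p = 0.101).

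Igfbp5, a binding protein held in extracellular matrix, had the widest null range after Igfbp2. It ranged from 12.71 to 13.01 with a median of 12.85 in wild-type and from 12.53 to 13.72 with a median of 13.13 in null libraries. Null libraries lay on both sides of the wild-type range, 4 above and 2 below it. The difference of 0.22 had a 95% interval from -0.15 to 0.58 (adjusted p = 0.307; 0.351 over set means). Without null library 1 it was 0.085 and without null library 2 it was 0.32, neither called (adjusted p = 0.616 and 0.0927). Igfbp2 and Igfbp5 are direct neighbours on chromosome 1, and Igfbp3 lies beside Igfbp1 on chromosome 11. Igfbp1, the binding protein of liver, was near the level of undetected genes, at 2.75 in wild-type and 2.91 in null libraries, and was not tested.

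**Figure D2:**
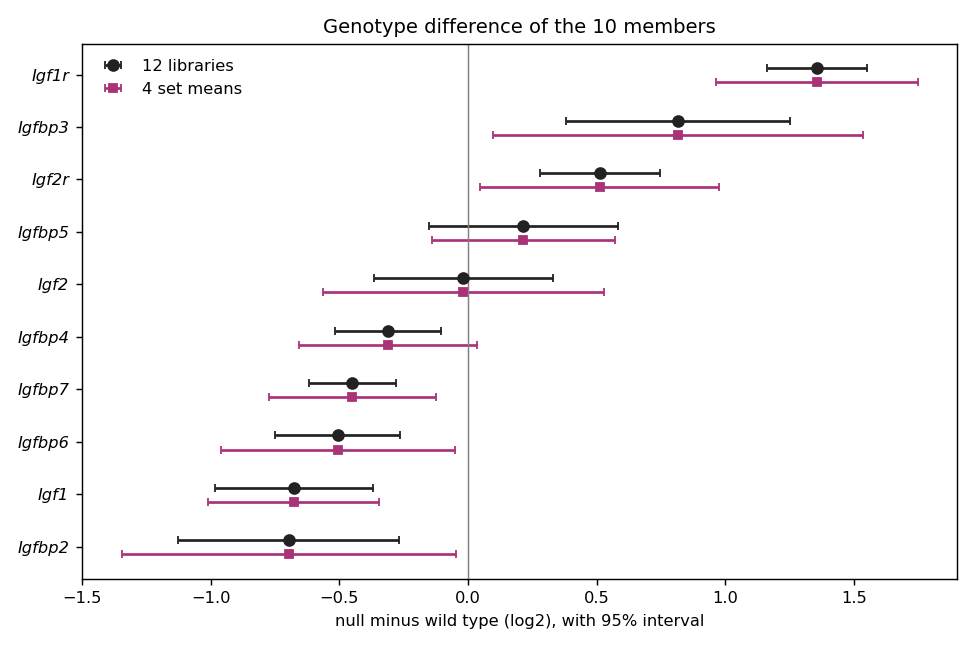
Null minus wild type on the log2 scale (horizontal axis) for the 10 members (vertical axis), with 95% intervals from limma over 12 libraries (black circles) and over 4 set means (purple squares). Intervals of Igf1r and Igf1 keep clear of 0 by the widest margin over set means, and those of Igf2 and Igfbp5 include 0 in both fits.

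Levels of different genes were compared only after division by length. On the scale of the deposited value less the log2 of exon length in kilobases (GENCODE M21, taking the values as log2 of counts, which the sources used here do not state), Igfbp7, Igfbp5 and Igfbp2 were highest in wild-type prostate, at levels of 10.34, 10.27 and 10.19. Those 3 levels differed by less than the spread between libraries, with SDs of 0.14 to 0.21. Igfbp6 followed at 9.63, then Igf2r at 8.36, Igfbp3 at 8.05, Igfbp4 at 7.93 and Igf1r at 7.22. Igf2r, Igfbp3 and Igfbp4 were not apart beyond the SD of Igfbp3, 0.43. Genes were measured in the same libraries, so these SDs do not show whether an order held within each library. That was not tested. The ligands were last, Igf1 at 5.48 and Igf2 at 4.02. In null prostate Igf1r stood at 8.58 on this scale, above Igfbp4 at 7.62, and Igfbp5 was highest at 10.48.

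The members also varied together within genotypes. After each genotype's mean was subtracted, Pearson's r over the 12 libraries was 0.94 for Igf1 with Igfbp5, 0.89 for Igfbp2 with Igfbp6 and 0.81 for Igf1r with Igf2r, and -0.91 for Igf1r with Igfbp3. These are descriptions without a test, since the libraries share sets: Igf1r was higher and Igfbp3 lower in wild-type libraries 4 to 6 than in 1 to 3. Among the genes most like Igf1 by the same measure were Slc35d3 (r = 0.97) and the muscarinic receptor gene Chrm1 (r = 0.96). Those most like Igf2r were Erbb3, the E-cadherin gene Cdh1 and Ehf (each r = 0.99), and those most like Igf1r were Aldh3a2 and Fam38b (each r = 0.99) and Dnajc1 (r = 0.98). Likeness within genotypes did not always go with the genotype difference: Aldh3a2 fell by 1.24, Fam38b by 0.67 and Cdh1 by 0.44, while the receptor genes rose. For Igfbp2 they were Fgl1 (r = 0.98), Angptl7 and Cdk5rap1 (each r = 0.97), and for Igfbp3 Gm5615, Tmem56 and Fcrls (r = 0.97 to 0.98). For Igfbp4 they were Tspan7, Tmem176a and Kcna5 (r = 0.95 to 0.96), for Igfbp6 the vinculin gene Vcl, the elastin gene Eln and Aldh1a2 (r = 0.96 to 0.97), and for Igfbp7 Casq1, the lysyl oxidase gene Lox and Tshz3 (r = 0.95 to 0.96).

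**Figure D3:**
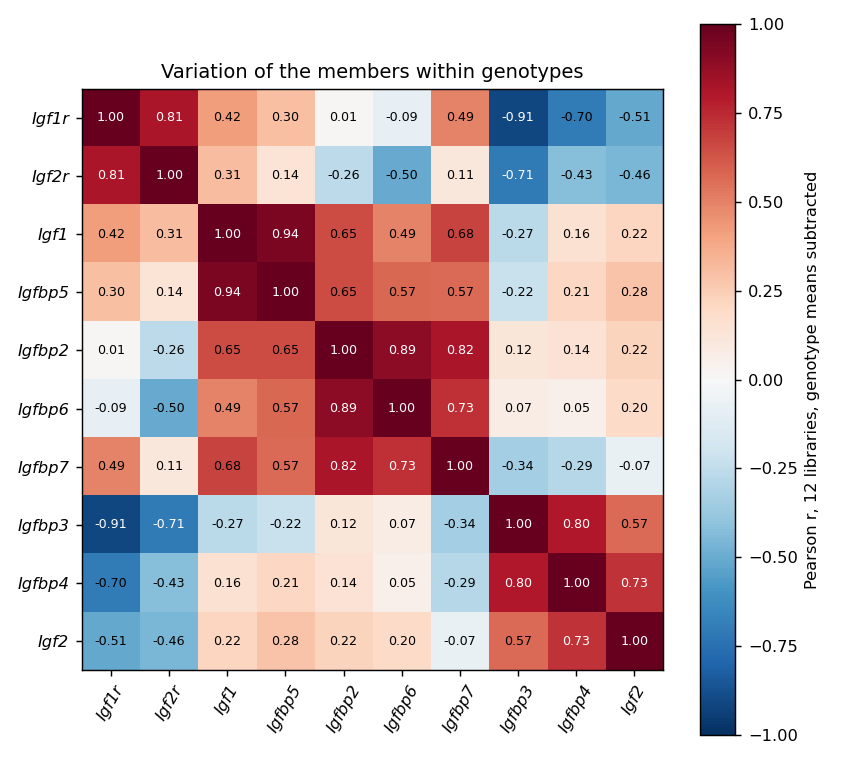
Pearson's r (colour scale and printed value) between the 10 members over 12 libraries after subtraction of each genotype's mean, with the same genes on both axes. Igf1 with Igfbp5 (0.94) and Igfbp2 with Igfbp6 (0.89) are the highest pairs, and Igf1r with Igfbp3 (-0.91) is the lowest.

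Fat and stroma markers varied between the same libraries. The summed level of 6 adipocyte genes, of which 3 rose, was 7.85 to 9.27 in wild-type and 7.65 to 11.34 in null libraries. Plin1, Cfd and Car3 were the genes that rose, and none of them passed over set means, where Lep alone did. The summed level was highest in null library 1 (11.34) and lowest in null library 2 (7.65). These libraries had the highest and the lowest Igf1, Igfbp4 and Igfbp5 of their genotype. Null library 1 was the highest null library for every member except Igf1r and Igf2r. Null libraries 1 and 2 also differed in other tissue signals. Their summed levels were 16.64 and 16.37 for smooth muscle, 13.95 and 13.58 for fibroblast and 18.16 and 20.26 for seminal vesicle genes. Null library 1 was the highest null library for the smooth muscle and fibroblast sums as well. Adipoq, the fat cell hormone gene, stood at 7.59 in null library 1, at 3.81 in null library 2 and at 3.64 to 3.91 in wild-type libraries 4 to 6, just above undetected genes. The part of fat, or of the other tissues, in the members' values was not tested. Wild-type libraries 4 to 6 had less adipocyte signal (7.85 to 7.94) than libraries 1 to 3 (9.16 to 9.27), and more Igf1 and Igfbp5. Of 8 fibroblast genes 3 fell (0 over set means), with a summed level of 13.75 to 14.00 in wild-type and 13.44 to 13.95 in null libraries. Of 8 smooth muscle genes 1 rose (0 over set means), at 16.16 to 16.36 and 15.85 to 16.64. The smooth muscle sum lay above every wild-type library in null libraries 1, 2 and 5 (16.64, 16.37 and 16.50). In null libraries 3, 4 and 6 it lay below every wild-type library (16.13, 15.85 and 16.00). Igfbp6 was likewise higher in the former (9.68, 9.37 and 9.54) than in the latter (9.03, 9.09 and 8.98). The null sets did not overlap in 39% of all tested genes. Of 7 myeloid genes 7 fell (1 over set means), at 11.80 to 12.65 and 11.25 to 11.39, and of 6 lymphocyte genes 5 fell (2 over set means), at 8.73 to 9.73 and 8.27 to 8.54. Of 6 basal epithelial genes 5 rose (4 over set means), at 10.69 to 10.84 and 11.20 to 11.82, and of 6 luminal genes 3 rose and 3 fell (1 and 1 over set means), at 15.60 to 15.81 and 15.39 to 15.83. Of 6 endothelial genes 1 rose and 1 fell (0 and 1 over set means), at 10.28 to 10.80 and 10.26 to 10.73. Of 6 skeletal muscle genes 5 were tested, of which 1 rose and 3 fell (0 and 2 over set means). Their summed level was 11.46 to 11.60 in wild-type and 11.66 to 12.26 in null libraries. Of all tested genes 28% were called higher and 25.1% lower over 12 libraries. The part of these cell types in the members' differences was not tested.

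**Figure D4:**
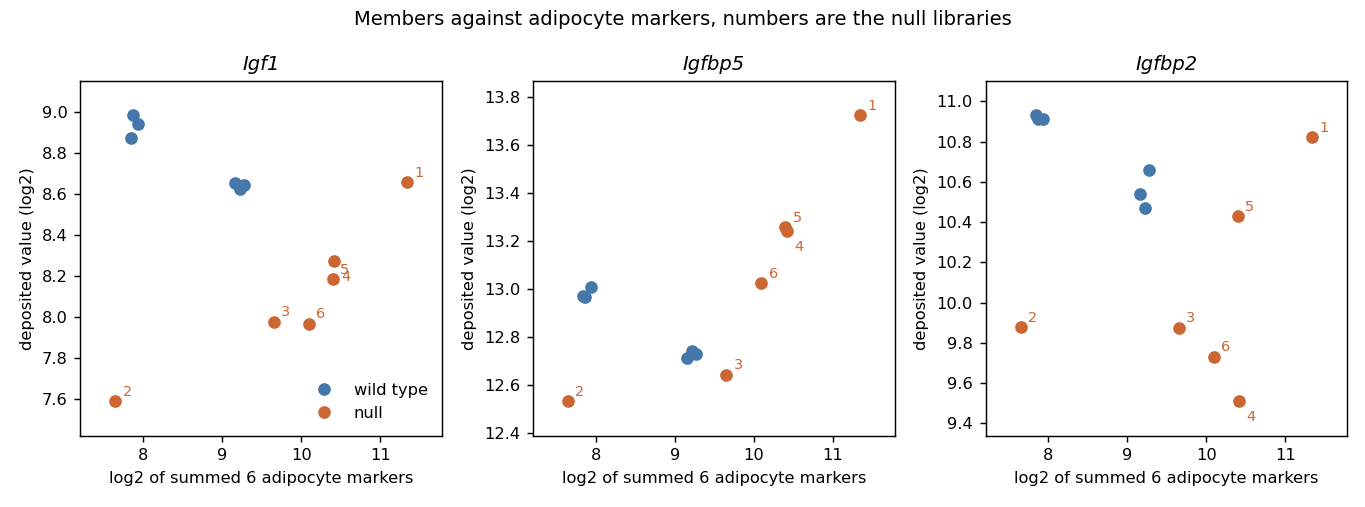
Deposited log2 values of Igf1, Igfbp5 and Igfbp2 (vertical axes) against the log2 of the summed linear values of 6 adipocyte markers (horizontal axes), with 1 point per library, blue for wild type and orange for null, and the replicate numbers of null libraries beside their points. Null library 1 (11.34 on the horizontal axis) and null library 2 (7.65) stand at opposite ends for Igf1 and Igfbp5, and wild-type libraries lie apart from that order.

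The rest of the pathway was read from 7 lists with 88 genes, of which 73 were tested. Over 12 libraries 27 of them rose and 17 fell, and over set means 13 rose, 5 fell. The share called, 60.3%, is to be read against 53.1% of all tested genes. Growth hormone signalling and the serum ternary complex had 3 of 6 genes called higher and 3 lower over 12 libraries, and 1 higher and 2 lower over set means, where Stat5a, Stat5b and Socs2 lost their calls. Ghr, the growth hormone receptor gene, fell by 0.99 ± 0.094 (SE), from 9.29 to 8.29 (adjusted p = 7.33e-07; 0.0119 over set means). Null libraries of Ghr, at 8.09 to 8.73, lay below all wild-type libraries, at 9.19 to 9.40. Igfals, which encodes the acid-labile subunit that joins IGF and IGFBP3 in serum, fell by 1.84, from 5.56 to 3.71 (adjusted p = 0.000162; 0.0286 over set means), a size limited by the level of undetected genes. Jak2, the kinase bound to the growth hormone receptor, rose by 0.84 and its target Stat5b by 0.33 (adjusted p = 9.48e-07 and 3.63e-05), and Stat5b was not called over set means (adjusted p = 0.0765).

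The largest differences in the pathway lay among the proteases and inhibitors that act on binding proteins, where 3 of 10 genes rose, 4 fell and 3 were not called (2 rose and 2 fell over set means). Pappa2, a protease that cuts IGFBP3 and IGFBP5, fell by 2.87 ± 0.19 (SE), with a wild-type mean of 9.79 ± 0.51 (SD, n = 6) and a null mean of 6.92 ± 0.074 (SD, n = 6; adjusted p = 5.62e-08; 0.00823 over set means). Its wild-type sets stood at 9.33 and 10.26, both far above the null range of 6.83 to 7.004. Adam28, a metalloprotease gene reported to act on IGFBP3, fell by 4.01, from set means of 6.24 and 8.43 in wild-type libraries to 3.11 to 3.58 in null libraries, around the 3.51 of undetected genes (adjusted p = 8.20e-06; 0.0331 over set means). The matrix protease gene Mmp2 rose by 0.65 and the lysosomal protease gene Ctsd by 0.66 (adjusted p = 1.05e-05 and 1.09e-06), and both passed over set means. Pappa, the close relative of Pappa2, was not called, with a difference of 0.13 (adjusted p = 0.471).

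Insulin and relaxin ligand genes were mostly undetected. Of 13 genes in that list 10 were not tested, and Insr, the insulin receptor gene, was the 1 called, with a rise of 0.57 ± 0.062 (SE) from 10.91 to 11.48 (adjusted p = 3.12e-06; 0.0346 over set means). Insr thus rose beside Igf1r, with which its protein can form hybrid receptors, and by less. Insl6, at 6.74 and 6.82, was not called (adjusted p = 0.496). Among genes for other proteins with an IGFBP domain, 1 of 9 tested rose, 2 fell and 6 were not called, and Crim1 alone passed over set means. Crim1, a membrane protein that binds BMPs, rose by 0.97 (adjusted p = 3.20e-08; 0.00822 over set means), and Cyr61, a matrix signalling protein, fell by 1.30 (adjusted p = 0.000397; 0.0605 over set means). Kazald1, an IGFBP-related secreted protein, fell by 0.39 (adjusted p = 0.00648; 0.159 over set means).

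Downstream of the receptors, 8 of 24 adaptor and PI3K-AKT genes rose, 5 fell and 11 were not called, a share of 54.2% called, close to that of all tested genes, and 3 rose and 1 fell over set means. Grb14, an adaptor that inhibits the insulin receptor, fell by 1.42, from 8.61 to 7.18 (adjusted p = 7.38e-07; 0.0160 over set means). Pik3r1, the regulatory subunit of PI3K, rose by 0.86 (adjusted p = 2.86e-06), Sos1, the exchange factor for RAS, by 0.61 and Inppl1, the lipid phosphatase SHIP2, by 0.39 (both adjusted p = 1.32e-06), and all of these passed over set means. In the FOXO and mTOR arm 9 of 14 genes rose (28% of all tested genes did), 1 fell and 4 missed the threshold. Over set means 4 rose and 0 fell. The median difference of that list was 0.25, beside 0.012 over all tested genes. Foxo4, a transcription factor that AKT inactivates, rose by 1.02 (adjusted p = 8.16e-08; 0.00775 over set means). Rictor, a subunit of mTORC2, rose by 0.51, and Tsc1, which restrains mTORC1, by 0.39, both also over set means. Rps6kb1, the S6 kinase gene, rose by 0.36 but lost its call over set means (adjusted p = 0.0562).

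Among 10 genes of the Igf2 locus, its imprinted network and its mRNA-binding proteins, 7 were tested, of which 2 rose, 2 fell and 3 were not called, and Airn alone passed over set means. Beside Airn, Peg3 rose by 0.70 (adjusted p = 0.0244; 0.249 over set means), a call lost in 11 of 25 other fits, among them those without wild-type library 5 or 6 or null library 1 or 5 (adjusted p = 0.0529 to 0.0567). Mest fell by 1.07 (adjusted p = 0.00275; 0.135 over set means), with wild-type set means of 6.95 and 8.11 that stood further apart than the genotypes. Igf2bp2, which encodes a protein that binds IGF2 mRNA, fell by 0.57 (adjusted p = 0.0116; 0.183 over set means).

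**Figure D5:**
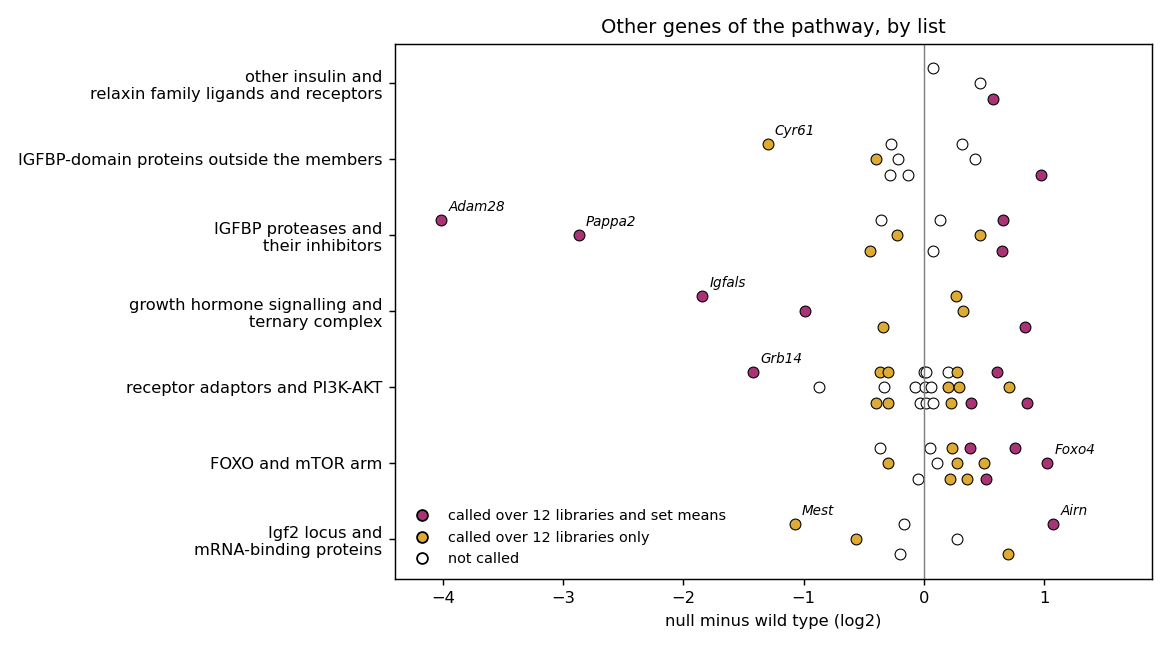
Null minus wild type on the log2 scale (horizontal axis) for the 73 tested genes of the 7 pathway lists (vertical axis), with 1 circle per gene, purple where called over 12 libraries and set means, yellow where called over 12 libraries alone and white where not called. The 8 genes that differ by 1 or more (7.12% of all tested genes do) are named, from Adam28 at -4.01 to Airn at 1.07.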

How the data were processed

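Whole prostate RNA of 6 wild-type and 6 null libraries was poly-A selected and sequenced on an Illumina HiSeq, as the labels' protocols state. Build mm9, TopHat2 2.0.4, CASAVA 1.8.2, DESeq and Cufflinks 2.0.2 appear in the submitters' processing notes without a role. The values the authors deposited are on a log2 scale (1.07 to 21.6), as the values show, and no source used here states the transformation. Without counts, sequencing depth is unknown.

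The test was limma 3.58.1 under R 4.3.3 (mean-variance trend, robust moderation, genotype as the only term) over 15096 genes that reached 4 in 6 or more libraries, with no pseudocount. Benjamini-Hochberg adjustment ran over all tested genes with a threshold of 0.05. A second fit used the means of 4 library sets, found as the triplets in which 1 library lay nearest to the average of its partners (3633 genes, mean 10 or more). The fit over 12 libraries was tested on simulated data of independent libraries. That simulation held no library sets, so the fit over set means was not tested by it.

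The members, lists and tests were chosen with earlier results of these data known. Named genes are the members, the 3 genes most correlated with each called member and the 4 called genes of smallest adjusted p per list. Where fewer than 2 genes of a list were called, the 2 of highest mean are named. Igfbp1, H19, Pappa and Adipoq were named after their values were seen. Plin1, Cfd, Car3, Lep, Acta1, Myh1, Myh2, Actn3, Stat5a and Socs2 were named by their calls, outside that rule. Promoter windows for all 10 members (14 windows) were matched by symbol. Alternatives were quantile and upper quartile scaling, no trend, a filter at 5, no filter, an exact rank-sum test, and libraries, sets or null libraries 5 and 6 left out. The fit with null libraries 1 to 4 was added after seeing the data. The level of the targeted gene and an item that the naming rule gives are not reported here.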

Additional observations from a re-analysis of the deposited data

Results flagged for a closer look

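In 70 groups of 6 libraries (35 named genes in 2 genotypes), 2 libraries stood apart from the other 5 by more than Dixon's 95% critical value, where chance gives about 1 in 20 groups. Sos1 stood at 10.31 in null library 1, with the nearest library at 10.20. Tsc1 stood at 9.51 in wild-type library 2, with the nearest at 9.59. None of the 10 members had such a library.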

How the results depend on the processing

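Over set means 2195 genes were called, with 2 members (1 higher, 1 lower) and 18 pathway genes. With 2 wild-type set means against null libraries 1 to 4 (added after seeing the data), 3232 genes, 2 members and 24 pathway genes were called. These fits have fewer samples. Among the fits that use the 12 libraries one by one, leaving none or some out, the count of members called was 6 to 8 and that of pathway genes 35 to 46. With each library left out in turn, 7586 to 7887 genes, 8 members and 39 to 43 pathway genes were called. Upper quartile scaling turned the balance of all calls from 4224 higher and 3789 lower to 3367 and 4869, and the members stayed at 3 higher and 5 lower. Over set means, limma without trend called 1 member, which rose, and quantile normalization 3. The planned pseudocount was not run, since the values were on a log2 scale. Igf2, never called, changed sign to 0.064 after quantile normalization, 0.19 without wild-type libraries 1 to 3, 0.11 without null libraries 3, 4 and 6, and in a range from -0.16 to 0.042 with single libraries left out. Insl6, never called, stood at -0.011 without null libraries 3, 4 and 6. The causes were not tested. No paired analysis was possible because the labels give the genotypes no shared replicate numbers. Values near the level of undetected genes limit the falls of Adam28 and Igfals.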

Other observations

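Genes of the pathway lists that were not called can still differ between null libraries, and these were picked after their values were seen. Plagl1, an imprinted zinc finger gene, stood at 6.29, 6.09 and 6.24 in null libraries 1, 2 and 5 and at 4.76, 4.75 and 4.77 in null libraries 3, 4 and 6, with 5.32 to 6.19 in wild-type libraries. Grb10, an imprinted gene for an adaptor that restrains IGF1R and insulin receptor signalling, stood at 5.33 in null library 3, 7.53 in library 4 and 6.69 in library 6, against 8.03 to 8.08 in null libraries 1, 2 and 5 and 7.91 to 8.41 in wild-type libraries. For both genes the null sets of 3 libraries did not overlap, which was so for 39% of all tested genes.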
